A study of Mus musculus with 12 samples.

Results

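The genes that copy the genome and supply its building blocks were followed in leukaemic cells of CML-like mice. The set holds 52 genes, chosen by name as factors of origin licensing, the replication fork and deoxynucleotide synthesis, of 46103 genes in the files. All 52 reached 1 RPKM (reads per kb of transcript and per M of reads) in at least 3 of the 12 libraries, as did 10072 genes in all. The libraries were made from 100 sorted cells each of bone marrow and spleen. The sorted cells were BCR-ABL1+ KSL cells (c-Kit+, Sca1+ and negative for lineage markers) that carried CD27. They came from bone marrow cells of 5FU-treated G0M mice that received BCR-ABL1 from a retrovirus and were then injected into lethally irradiated C57BL/6 mice. All groups therefore share BCR-ABL1, the transplantation and G0M, a fluorescent p27 fusion expressed from the Rosa26 allele after recombination by Vav1-Cre, which is active in blood cells. G0M marks cells in G0 phase, so the gate that separates the populations is itself a cell cycle reporter. DP cells (G0M+CD27+) and SP cells (G0M-CD27+) came from vehicle-treated mice, and IMDP and IMSP cells are the same populations from mice that received imatinib, which blocks the BCR-ABL1 kinase, by oral gavage once a day. Each group has 3 libraries. The labels do not say whether these came from separate mice, so p values measure the spread between libraries.

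Replication begins when the origin recognition complex, Cdc6 and Cdt1 load the ring-shaped MCM2-7 helicase onto DNA in G1 phase, a step called licensing. At the start of S phase the kinase Cdc7 with its activator Dbf4, together with Mcm10, Cdc45 and the GINS complex, turns the loaded ring into an active helicase, behind which the polymerases copy both strands. Ribonucleotide reductase, thymidylate synthase and thymidine kinase supply the deoxynucleotides, and transcription factors of the E2F family drive many of these genes when cells leave G0.

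Promoter sequence was available for 43 of the 52 genes in a table from RefSeq (GRCm38.p6), as 250 bases before to 50 bases after each start. An E2F motif was searched as TTCCCGC, as the common form TTGGCGC, as its variant TTCGCGC or as the further variant TTGCCGC on both strands, forms that can overlap each other on opposite strands. A gene counted if any promoter listed for it held the motif. It stood in a promoter of 27 of the 43 genes (62.8%), against 10.9% of the 27025 genes in the table. The CCAAT box stood in 24 of 43 (55.8%, against 41.1% of all genes), and TTTGAA, the element called CHR that is known from G2 and mitosis genes, stood in 7 of 43 (16.3%, against 20.2%). Of the 7 genes with TTTGAA, 4 were helicase activation genes. A match describes these letters in these windows and shows no binding. The 250 bases before the first listed start are printed 5′ to 3′ for 5 genes, with E2F motifs in capitals. Mcm5 (chr8:75109259-75109508, plus strand) and Mcm6 (chr1:128359706-128359955, minus strand) are helicase subunits. They were not called between DP and SP cells in the fit without a block or other scaling. Chaf1b (chr16:93883651-93883900, plus strand) had the highest average difference of DP and IMDP from SP and IMSP cells. Rrm1 (chr7:102441445-102441694, plus strand) and Rrm2 (chr12:24708004-24708253, plus strand) make up ribonucleotide reductase and fell in that average.
Mcm5: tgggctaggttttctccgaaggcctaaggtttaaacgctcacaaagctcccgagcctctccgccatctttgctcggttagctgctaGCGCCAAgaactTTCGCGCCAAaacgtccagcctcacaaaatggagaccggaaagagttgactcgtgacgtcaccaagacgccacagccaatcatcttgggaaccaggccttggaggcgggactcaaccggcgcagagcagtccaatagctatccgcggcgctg
Mcm6: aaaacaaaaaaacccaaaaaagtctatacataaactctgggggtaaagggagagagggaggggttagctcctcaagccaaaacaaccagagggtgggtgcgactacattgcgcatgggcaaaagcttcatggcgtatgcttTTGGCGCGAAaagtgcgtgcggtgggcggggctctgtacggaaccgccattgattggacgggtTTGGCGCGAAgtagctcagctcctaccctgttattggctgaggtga
Chaf1b: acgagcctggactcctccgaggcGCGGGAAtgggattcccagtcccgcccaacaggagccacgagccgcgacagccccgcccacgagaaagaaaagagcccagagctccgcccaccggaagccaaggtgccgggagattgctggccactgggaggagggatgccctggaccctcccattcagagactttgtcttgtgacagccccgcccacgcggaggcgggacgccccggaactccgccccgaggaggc
Rrm1: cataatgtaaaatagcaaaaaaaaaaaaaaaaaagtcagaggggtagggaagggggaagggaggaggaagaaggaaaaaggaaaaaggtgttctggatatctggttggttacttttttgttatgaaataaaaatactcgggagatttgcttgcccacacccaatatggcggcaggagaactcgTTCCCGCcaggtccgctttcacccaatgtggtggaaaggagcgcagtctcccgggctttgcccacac
Rrm2: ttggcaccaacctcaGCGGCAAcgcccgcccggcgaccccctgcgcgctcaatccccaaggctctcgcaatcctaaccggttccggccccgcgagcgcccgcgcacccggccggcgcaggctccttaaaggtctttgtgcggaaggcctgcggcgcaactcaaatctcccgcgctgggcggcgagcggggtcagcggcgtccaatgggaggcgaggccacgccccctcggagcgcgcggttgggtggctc
Mcm5 holds 3 such motifs before its start and Mcm6 holds 4, while Chaf1b, Rrm1 and Rrm2 hold 1 each.

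The RPKM values rest on totals of 11.37 M to 20.57 M reads, of which 25.9% to 37.1% lay on listed features. This share was lowest in IMDP2 (25.9%) and IMDP3 (27.1%) and 30.8% or more in the other 10 libraries. The lowest count of a member was 27 reads, for Gins3, and 45 of the 52 members had 100 reads or more in every library. Kit was at 16.8 to 39.8 RPKM, Ly6a (Sca1) at 3.12 to 20.8 RPKM and Cd27 at 12.2 to 21.4 RPKM, so the genes of the gate were present in every library. Summed markers of other cells differed between groups. The 13 mast cell and basophil genes summed to 90.9 to 412.0 RPKM in DP, 18.1 to 47.1 RPKM in SP, 22.3 to 221.0 RPKM in IMDP and 9.1 to 31.4 RPKM in IMSP cells. The 10 erythroid genes summed to 211.0 to 292.0, 96.0 to 182.0, 67.2 to 501.0 and 26.0 to 112.0 RPKM in the same order, the 10 neutrophil genes to 70.7 to 1420.0, 388.0 to 2650.0, 75.9 to 292.0 and 520.0 to 2230.0 RPKM, the 10 macrophage genes to 6.36 to 17.1, 3.8 to 8.84, 18.7 to 21.8 and 6.86 to 38.2 RPKM, and the 10 lymphoid genes to 84.8 to 175.0, 92.9 to 268.0, 29.6 to 84.8 and 64.4 to 166.0 RPKM. Tpsab1, Marco, Ighm and Ms4a1 were listed at 0 in all libraries. The part of these cells in the results was not tested. The imatinib libraries are numbered 1 to 6 and the vehicle libraries 7 to 12, so imatinib and the library series cannot be told apart.

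Most members were lower in the G0M+ than in the G0M- population of imatinib-treated mice, whereas few differed past the test in vehicle-treated mice. Between IMDP and IMSP cells 36 of the 52 members fell past an adjusted p of 0.05 (limma on log2(RPKM + 0.1), Benjamini-Hochberg over 10072 genes), none rose, and all 52 estimates were below 0, as were 69.0% of all genes. Of all genes tested, 25.6% were called in this comparison and 23.3% were called lower. The median log2 difference was -0.76 over the members and -0.25 over all genes. All IMDP libraries lay below all IMSP libraries in 33 members and in 32.8% of all genes. Between DP and SP cells only Dbf4 and Tk1 fell, 2 of 52 against 2.26% of all genes, a share near the background, and the median was -0.10 for the members and -0.02 for all genes. With the library number as a block, which pairs libraries with neighbouring numbers, Pold2, Rfc5 and Rrm1 were also called lower (adjusted p = 0.0236, 0.0168 and 0.0321), and the share of all genes called was then 9.73%, about that of the members (5 of 52). All DP libraries lay below all SP libraries in 11 members and above them in 7, against 12.7% and 9.68% of all genes. Averaged over both treatments, 25 members fell and none rose, against 26.3% of all genes called and 21.0% called lower, with a median of -0.43 for the members and -0.13 for all genes. In bulk libraries, fewer cells in S phase and less RNA per cell cannot be told apart.

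**Figure D1:**
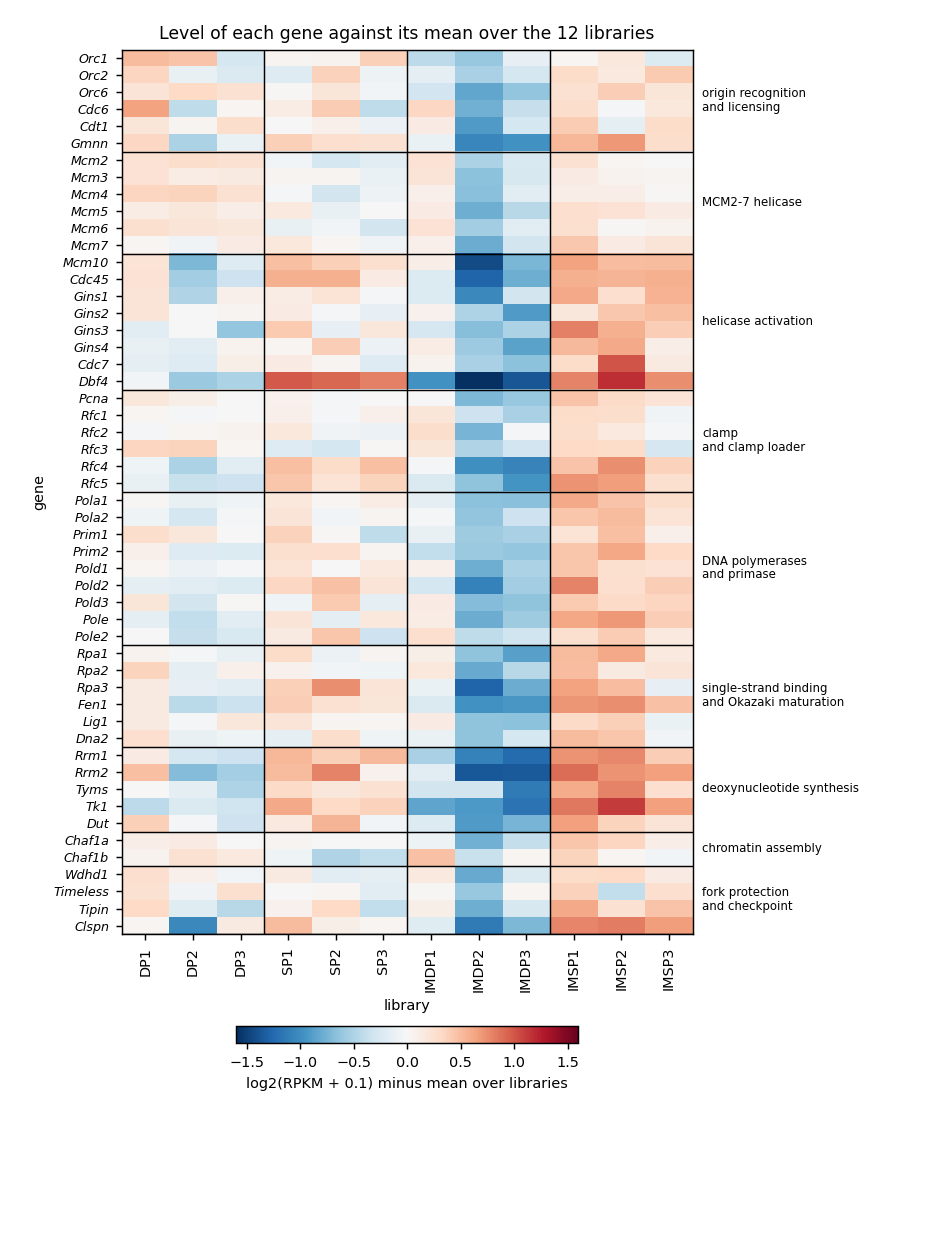
Level of each of the 52 genes (rows, by role) in each of the 12 libraries (columns), as log2(RPKM + 0.1) minus the gene's mean over all libraries, red above and blue below that mean. IMDP2 is the lowest IMDP library for 39 genes and IMDP1 the highest for 50, and the rows of Dbf4 and Tk1 are red in all SP and IMSP and blue in all IMDP libraries.

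The libraries within a group were not alike. IMDP1 was the highest IMDP library for 50 of 52 members, with a median of 9.28 RPKM, against 5.68 RPKM in IMDP2 and 6.81 RPKM in IMDP3. DP1 was the highest DP library for 34 members (median 10.1 RPKM, against 8.52 and 8.98 RPKM). IMDP1 also had the highest erythroid and mast cell sums of the IMDP libraries, at 501.0 and 221.0 RPKM, and DP1 the highest mast cell and neutrophil sums of the DP libraries, at 412.0 and 1420.0 RPKM. Without IMDP1, 46 members were called between IMDP and IMSP cells (29.7% of all genes), and without IMDP2 or IMDP3, 22 each (11.9% and 15.6%). Without IMSP1 18 were called (8.98%). When all libraries were scaled to the same median of all genes, 25 of the 36 were still called (15.8% of all genes), and with the reads on listed features as denominator 22 were (15.5%). The calls on Cdc45, Clspn, Dbf4, Fen1, Gmnn, Orc6, Pcna, Pola1, Pold2, Pole, Prim2, Rfc4, Rfc5, Rrm1, Rrm2, Tk1 and Tyms held in all 12 fits that left out 1 library, 17 members in all.

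**Figure D2:**
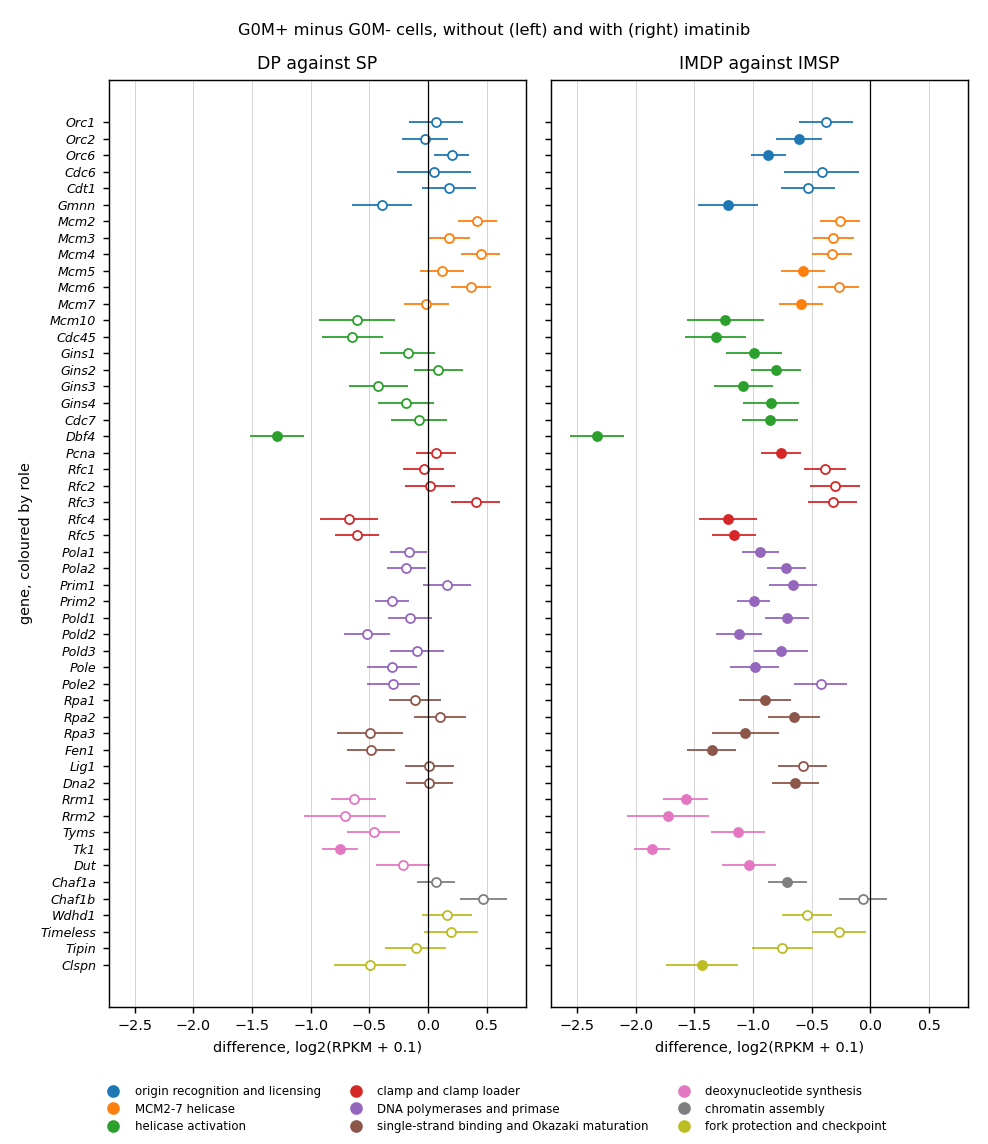
Difference of log2(RPKM + 0.1) between DP and SP cells (left) and between IMDP and IMSP cells (right) for each of the 52 genes, coloured by role. Bars show 1 SE, filled circles mark genes past the adjusted p of 0.05 and open circles the others; all 5 deoxynucleotide genes are filled on the right, and Dbf4 lies farthest from 0 on both sides.

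The role group with the largest median difference was deoxynucleotide synthesis. All 5 genes were called lower in IMDP than in IMSP cells, with a median log2 difference of -1.57, and all 5 fell in the average over treatments, with a median of -1.10. After scaling to the same median of all genes these 5 calls stood, at a median of -1.30 between IMDP and IMSP cells. Tk1 stood at 7.08, 8.06 and 7.53 RPKM in DP, at 14.5, 11.8 and 12.2 RPKM in SP, at 5.22, 4.96 and 4.1 RPKM in IMDP and at 17.1, 20.6 and 15.0 RPKM in IMSP cells. Tk1, thymidine kinase 1 (chr11:117815526-117826092), salvages thymidine in S phase, and every G0M+ library lay below every G0M- library under both treatments. Its log2 difference was -0.75 (SE 0.15, adjusted p = 0.0229) between DP and SP cells and -1.86 (SE 0.15, adjusted p = 3.95e-05), or 3.62-fold lower, between IMDP and IMSP cells. The libraries held Rrm1 at 39.1, 29.5 and 28.3 RPKM (DP), 51.7, 46.4 and 51.3 RPKM (SP), 24.9, 16.8 and 15.2 RPKM (IMDP) and 58.8, 61.2 and 47.2 RPKM (IMSP). Rrm1 (chr7:102441695-102469771) encodes the large subunit of ribonucleotide reductase. Its libraries did not overlap between the populations under either treatment, with a log2 difference of -1.57 (SE 0.19, adjusted p = 0.00035) between IMDP and IMSP cells and -0.64 (SE 0.19, adjusted p = 0.149) between DP and SP cells, where it was called with the library number as block. The call on Tk1 between DP and SP cells held in 6 of the 12 fits that left out 1 library.

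For Dut, the DP libraries gave 18.5, 13.9 and 11.3 RPKM, the SP libraries 15.9, 20.8 and 13.8 RPKM, the IMDP libraries 12.2, 7.52 and 8.46 RPKM and the IMSP libraries 22.5, 18.2 and 16.4 RPKM. Dut, dUTPase, keeps uracil out of DNA. It had the largest adjusted p of the 5 in the average over treatments, 0.0183, with a log2 difference of -0.62, and the DP and SP libraries overlapped. Rrm2 (chr12:24708241-24714146), the small subunit of the reductase whose supply follows S phase, ranged from 15.6 to 35.2 RPKM in DP, 26.5 to 44.0 RPKM in SP, 9.77 to 22.2 RPKM in IMDP and 39.8 to 47.1 RPKM in IMSP cells. The high DP value was that of DP1, and Rrm2 fell by 1.72 on the log2 scale between IMDP and IMSP cells (SE 0.35, adjusted p = 0.00629). Tyms, thymidylate synthase, which makes dTMP, fell by 1.13 on the same scale (SE 0.23, adjusted p = 0.00629), with 2.58 to 4.67 RPKM in IMDP and 6.97 to 10.1 RPKM in IMSP cells.

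Helicase activation genes had the next largest median. All 8 were called lower in IMDP than in IMSP cells (median -1.04) and 6 fell in the average over treatments (median -0.67). Between DP and SP cells only Dbf4 of the 8 fell without a block or other scaling. After scaling to the same median of all genes, 5 of the 8 stayed called between IMDP and IMSP cells (median -0.76, 15.8% of all genes called). The calls on Cdc7, Gins2 and Gins4 were lost there, and with listed reads as denominator those on Gins1 and Mcm10 as well. In the average 4 stayed called after scaling (median -0.51, 23.6% of all genes called). The libraries held Dbf4 at 5.73, 3.88 and 4.14 RPKM (DP), 11.8, 11.3 and 10.4 RPKM (SP), 2.97, 1.48 and 2.24 RPKM (IMDP) and 10.3, 13.5 and 10.0 RPKM (IMSP). Dbf4 (chr5:8396973-8422716), the activator of the Cdc7 kinase, showed no overlap between populations under either treatment. It had the largest difference of the 52 members in both comparisons, -1.29 (SE 0.23, adjusted p = 0.0106) between DP and SP cells and -2.33 (SE 0.23, adjusted p = 0.000138) on the log2 scale between IMDP and IMSP cells, a level 5.02-fold lower. The call between DP and SP cells was made in 9 of the 12 fits that left out 1 library. Cdc7, the kinase itself, overlapped between DP and SP cells. It was at 5.94 to 7.34 RPKM in DP and 5.94 to 7.51 RPKM in SP cells, a log2 difference of -0.08 with a 95% interval of -0.60 to 0.44, and fell by 0.85 between IMDP and IMSP cells (adjusted p = 0.023).

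Cdc45 stood at 12.1, 6.99 and 8.18 RPKM in DP, at 15.4, 15.3 and 11.3 RPKM in SP, at 8.86, 4.2 and 5.94 RPKM in IMDP and at 15.3, 15.1 and 15.3 RPKM in IMSP cells. Cdc45, which joins MCM2-7 and GINS in the active helicase, overlapped between DP and SP cells only through DP1 and SP3, and its log2 difference between IMDP and IMSP cells was -1.32 (SE 0.26, adjusted p = 0.00557). For Gins2, the DP libraries gave 6.89, 5.91 and 6.12 RPKM, the SP libraries 6.51, 5.85 and 5.44 RPKM, the IMDP libraries 6.26, 4.21 and 3.13 RPKM and the IMSP libraries 6.74, 8.05 and 8.36 RPKM. Gins2, a GINS subunit, had the largest adjusted p of the 8 in the average over treatments (0.0923). Its DP and SP libraries overlapped, with a log2 difference of 0.09 and a 95% interval of -0.37 to 0.55. Mcm10, which helps Cdc45 and GINS act on the ring, was at 1.99 to 3.88 RPKM in DP and 3.98 to 4.67 RPKM in SP cells, with -0.61 on the log2 scale (adjusted p = 0.461), and fell by 1.24 between IMDP and IMSP cells (adjusted p = 0.0189). Gins1, Gins3 and Gins4 fell by 0.99, 1.08 and 0.85 in the latter comparison.

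Of the 6 MCM2-7 genes, the ring that these factors activate, 2 were called between IMDP and IMSP cells, beside 25.6% of all genes. None of the 6 was called in the average over treatments with all libraries and no block or other scaling, and their median log2 difference was 0.27 between DP and SP cells and -0.32 between IMDP and IMSP cells, where Mcm5 and Mcm7 were called lower. Mcm2 stood at 49.7, 51.3 and 50.3 RPKM in DP, at 41.1, 34.8 and 37.4 RPKM in SP, at 49.8, 29.7 and 35.8 RPKM in IMDP and at 50.2, 43.1 and 42.1 RPKM in IMSP cells. For Mcm4, the DP libraries gave 36.5, 36.9 and 34.1 RPKM, the SP libraries 28.1, 23.4 and 27.3 RPKM, the IMDP libraries 30.4, 18.1 and 25.7 RPKM and the IMSP libraries 31.0, 31.0 and 29.1 RPKM. The libraries held Mcm6 at 54.5, 52.6 and 51.9 RPKM (DP), 42.3, 44.2 and 37.2 RPKM (SP), 53.7, 31.2 and 40.6 RPKM (IMDP) and 54.5, 46.3 and 47.4 RPKM (IMSP). In each of Mcm2 (chr6:88883474-88898780), Mcm4 and Mcm6 (chr1:128331590-128359664), all 3 DP libraries lay above all 3 SP libraries, with log2 differences of 0.42 (95% interval 0.05 to 0.79), 0.45 (0.08 to 0.81) and 0.36 (-0.01 to 0.74), none past the test (adjusted p = 0.316, 0.273 and 0.396). Mcm3 also lay higher in every DP library, at 62.4 to 67.3 against 53.1 to 59.1 RPKM.

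For Mcm5, the DP libraries gave 52.0, 54.4 and 51.8 RPKM, the SP libraries 53.5, 44.4 and 48.1 RPKM, the IMDP libraries 52.8, 28.0 and 35.3 RPKM and the IMSP libraries 58.0, 56.5 and 52.7 RPKM. Mcm7 stood at 36.5, 34.2 and 38.9 RPKM in DP, at 40.2, 36.3 and 34.2 RPKM in SP, at 37.6, 20.6 and 29.0 RPKM in IMDP and at 48.0, 39.0 and 41.2 RPKM in IMSP cells. Mcm5 and Mcm7 overlapped between DP and SP cells, and fell by 0.57 and 0.59 between IMDP and IMSP cells (adjusted p = 0.0433 and 0.0382), where the Mcm5 libraries still overlapped through IMDP1. Both calls were lost when libraries were scaled to the same median (adjusted p = 0.184 and 0.168), and the log2 difference of Mcm2 was then 0.01 and that of Mcm6 0.00. The average difference over treatments was 0.08 for Mcm2, 0.06 for Mcm4 and 0.05 for Mcm6, with 95% intervals of -0.18 to 0.34, -0.20 to 0.32 and -0.22 to 0.31. With the library number as a block and all libraries scaled to the same median, a setting chosen after seeing the data, Mcm2, Mcm4 and Mcm6 were called higher in DP than in SP cells (log2 0.46, 0.49 and 0.40, adjusted p = 0.00912, 0.021 and 0.0211), as were Rfc3 and Chaf1b, while Cdc45, Dbf4, Pold2, Rfc5, Rrm1, Rrm2 and Tk1 were called lower. This made 12 calls, where 14.7% of all genes were called. The calls in the average depended on the setting as well. With that block and scaling Mcm2, Mcm4 and Mcm6 were called higher (log2 0.24, 0.22 and 0.20, adjusted p = 0.00972, 0.0415 and 0.027, 45.4% of all genes called), with listed reads as denominator Mcm2 was (0.27, adjusted p = 0.0448, 23.7%), and with the block alone Mcm7 was called lower (-0.30, adjusted p = 0.015, 46.9%). Without IMDP1, Mcm5 and Mcm7 were called lower (-0.35 and -0.41, adjusted p = 0.0145 and 0.0187, 30.5%).

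**Figure D3:**
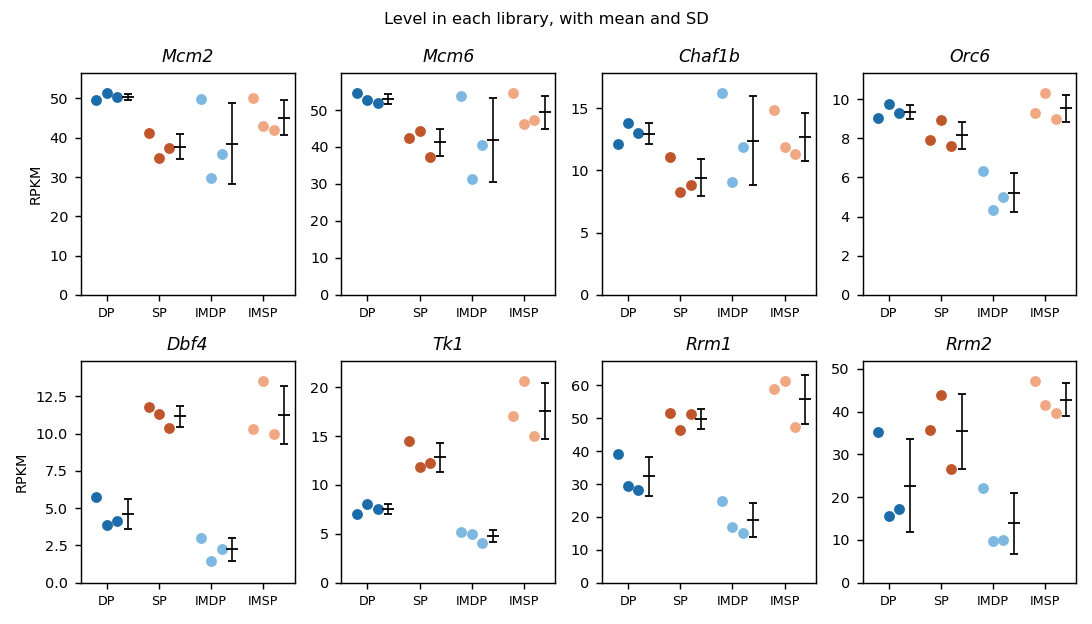
RPKM of 8 genes in each library (points), with the group mean and SD (black), for DP, SP, IMDP and IMSP cells; every axis starts at 0. Mcm2 and Mcm6 lie higher in all DP than in all SP libraries, and Dbf4, Tk1 and Rrm1 lower in all DP and IMDP than in all SP and IMSP libraries.

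The balance between these groups within each library does not depend, apart from the pseudocount, on how libraries are scaled. The mean log2 level of the 6 MCM2-7 genes exceeded that of the 5 deoxynucleotide genes by 1.59, 1.96 and 2.08 in DP and by 2.07, 1.75 and 2.36 in IMDP libraries, but by 1.11, 0.95 and 1.15 in SP and 1.00, 0.84 and 1.13 in IMSP libraries. The G0M+ libraries all lay above the G0M- libraries, and imatinib and vehicle libraries of one population overlapped. The difference between the MCM2-7 genes and 30 mitotic genes was 3.16, 5.00 and 4.71 in DP, 4.61, 4.40 and 5.21 in IMDP, 1.42, 1.34 and 1.28 in SP and 1.61, 1.20 and 1.76 in IMSP libraries. The 6 MCM genes summed to 290.0 to 296.0 RPKM in DP and 237.0 to 264.0 RPKM in SP cells, while the 5 deoxynucleotide genes summed to 68.5 to 106.0 and 111.0 to 129.0 RPKM. With imatinib the MCM sum was 164.0 to 290.0 RPKM in IMDP and 272.0 to 304.0 RPKM in IMSP cells. The deoxynucleotide sum was 40.3 to 69.1 and 126.0 to 154.0 RPKM.

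**Figure D4:**
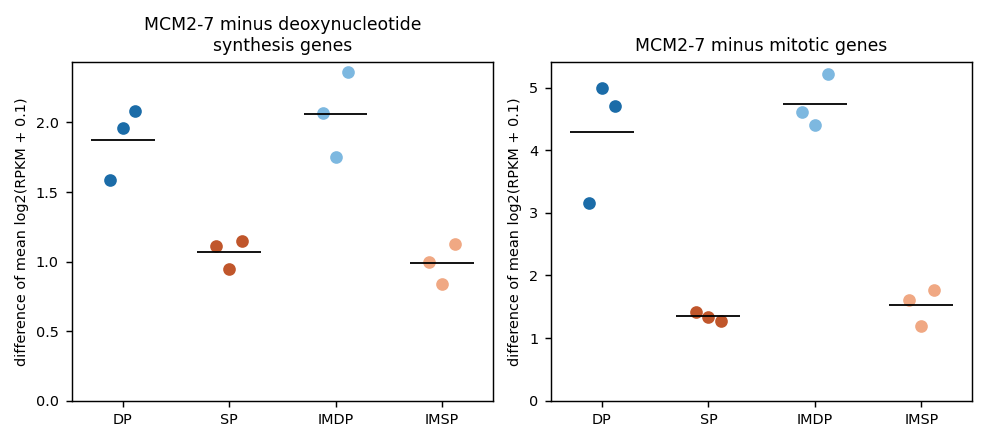
Mean log2(RPKM + 0.1) of the 6 MCM2-7 genes minus that of the 5 deoxynucleotide synthesis genes (left) and of 30 mitotic genes (right) in each library (points), with group means (lines). All DP and IMDP libraries lie above all SP and IMSP libraries in both panels, and DP1 is the lowest G0M+ library in both.

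Of 6 licensing factors, the inhibitor Gmnn and the origin recognition subunits Orc2 and Orc6 fell between IMDP and IMSP cells. The loaders Cdc6 and Cdt1 were not called in any comparison with all libraries and no block or other scaling. Cdt1 was called lower between IMDP and IMSP cells with the library number as a block (44.1% of all genes called). It was also called there in 1 of the 12 fits that left out 1 library. The call on Orc2 was lost after scaling to the same median. Gmnn stood at 18.7, 10.4 and 13.8 RPKM in DP, at 19.4, 18.0 and 17.6 RPKM in SP, at 13.8, 7.16 and 7.54 RPKM in IMDP and at 21.6, 24.0 and 18.1 RPKM in IMSP cells. Gmnn, geminin, binds Cdt1 and blocks a second round of licensing, and it fell in the average over treatments by 0.80 (SE 0.18, adjusted p = 0.00907). The libraries held Cdc6 at 6.2, 2.93 and 3.99 RPKM (DP), 4.26, 5.21 and 2.93 RPKM (SP), 4.97, 2.25 and 3.01 RPKM (IMDP) and 4.79, 3.85 and 4.43 RPKM (IMSP). Cdc6 had a log2 difference of 0.05 between DP and SP cells, with a 95% interval of -0.64 to 0.74, and of -0.41 between IMDP and IMSP cells (adjusted p = 0.351). Cdt1 was at 14.1 to 16.6 RPKM in DP, 12.8 to 14.4 RPKM in SP, 7.24 to 14.9 RPKM in IMDP and 12.2 to 18.1 RPKM in IMSP cells, with overlap in both comparisons. Orc1 differed by 0.07 between DP and SP cells and by -0.38 between IMDP and IMSP cells, both short of the threshold.

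For Orc6, the DP libraries gave 9.03, 9.74 and 9.32 RPKM, the SP libraries 7.91, 8.95 and 7.59 RPKM, the IMDP libraries 6.32, 4.35 and 5.0 RPKM and the IMSP libraries 9.32, 10.3 and 8.97 RPKM. Orc6 (chr8:85299632-85308278) lay above SP in every DP library (0.20 (SE 0.15, adjusted p = 0.577)) and below IMSP in every IMDP library (-0.87 (SE 0.15, adjusted p = 0.00268)). Every IMDP library also lay below every DP library, with a log2 difference of -0.85 (SE 0.15, adjusted p = 0.0468), and Orc6 was the only one of the 52 called between these groups, where 0.367% of all genes were called. The call of Orc6 between IMDP and DP cells rested on the choice of fit. It was absent without any one library other than IMDP1, in the fit of these 2 groups alone and after scaling to the same median.

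The sliding clamp Pcna is placed on DNA by its loader, replication factor C (RFC). Of these 6 genes, Pcna, Rfc4 and Rfc5 fell between IMDP and IMSP cells and Rfc4 and Rfc5 fell in the average over treatments. Rfc5 stood at 21.0, 17.7 and 18.1 RPKM in DP, at 31.0, 26.4 and 29.1 RPKM in SP, at 19.3, 14.5 and 11.7 RPKM in IMDP and at 37.7, 36.1 and 27.1 RPKM in IMSP cells. The libraries held Rfc4 at 4.36, 3.21 and 4.06 RPKM (DP), 6.48, 5.67 and 6.47 RPKM (SP), 4.52, 2.27 and 2.14 RPKM (IMDP) and 6.32, 7.74 and 5.98 RPKM (IMSP). Both loader subunits lay lower in every G0M+ than in every G0M- library, Rfc5 with -1.16 (SE 0.19, adjusted p = 0.00188) and Rfc4 with -1.22 (SE 0.25, adjusted p = 0.00631) between IMDP and IMSP cells. For Rfc3, the DP libraries gave 11.3, 11.4 and 9.07 RPKM, the SP libraries 7.68, 7.28 and 8.99 RPKM, the IMDP libraries 10.2, 6.31 and 7.14 RPKM and the IMSP libraries 11.1, 10.9 and 7.39 RPKM. Rfc3, a subunit of the same complex, lay higher in every DP than in every SP library by 0.40 (95% interval -0.05 to 0.86, adjusted p = 0.438), and the average over treatments was 0.04 (-0.28 to 0.36). Rfc1 and Rfc2 had averages of -0.21 and -0.14, short of the threshold. Pcna, the second most abundant member with a mean of 56.7 RPKM after Mcm3 with 58.0 RPKM, was at 55.3 to 62.8 RPKM in DP and 54.6 to 58.2 RPKM in SP cells, and at 33.7 to 55.8 RPKM in IMDP and 64.3 to 75.9 RPKM in IMSP cells, with a log2 difference there of -0.76 (SE 0.17, adjusted p = 0.00937).

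Polymerase and primase genes were called mostly between the populations of imatinib-treated mice. Of 9, 8 fell between IMDP and IMSP cells (median -0.76) and 6 in the average over treatments (median -0.45), and between DP and SP cells none was called (median -0.19) except Pold2 under the library-number block. After scaling to the same median of all genes, 5 stayed called between IMDP and IMSP cells and 5 in the average. Pold2 stood at 12.8, 12.6 and 12.2 RPKM in DP, at 17.9, 19.8 and 16.5 RPKM in SP, at 11.7, 6.7 and 9.64 RPKM in IMDP and at 24.7, 17.1 and 18.8 RPKM in IMSP cells. Pold2, an accessory subunit of polymerase delta, which extends the lagging strand, did not overlap between the populations, with -1.12 (SE 0.20, adjusted p = 0.00304) between IMDP and IMSP cells and -0.52 (SE 0.20, adjusted p = 0.274) between DP and SP cells. For Prim2, the DP libraries gave 6.24, 5.07 and 5.03 RPKM, the SP libraries 7.05, 7.14 and 6.09 RPKM, the IMDP libraries 4.45, 3.88 and 3.8 RPKM and the IMSP libraries 8.02, 9.1 and 7.37 RPKM. Prim2, the large subunit of the primase that starts each new strand, fell by 1.00 between IMDP and IMSP cells (SE 0.14, adjusted p = 0.000958), and the DP and SP libraries overlapped. The libraries held Prim1 at 9.2, 8.59 and 7.54 RPKM (DP), 9.8, 7.69 and 5.67 RPKM (SP), 6.97, 5.09 and 5.24 RPKM (IMDP) and 8.8, 10.6 and 8.03 RPKM (IMSP). Prim1, the catalytic primase subunit, had the largest adjusted p of the 9 in the average over treatments (0.205), with a log2 difference of 0.16 between DP and SP cells (-0.29 to 0.60), and fell by 0.66 between IMDP and IMSP cells (adjusted p = 0.0344). Pole, the catalytic subunit of the leading strand polymerase epsilon, fell by 0.99, and Pola1, that of polymerase alpha, by 0.94. Pole2, the other subunit of epsilon here, was the one not called, with -0.42 (adjusted p = 0.18).

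Factors that bind single strands and join Okazaki fragments followed the same order. Of 6, 5 fell between IMDP and IMSP cells and 3 in the average over treatments. After scaling to the same median of all genes, 3 and 2 stayed called. Fen1 stood at 19.2, 12.9 and 13.7 RPKM in DP, at 22.8, 20.6 and 20.0 RPKM in SP, at 14.8, 8.87 and 9.07 RPKM in IMDP and at 28.5, 29.3 and 24.2 RPKM in IMSP cells. Fen1, the flap nuclease that trims Okazaki fragments, was lower in every G0M+ than in every G0M- library, with -1.35 (SE 0.21, adjusted p = 0.0014) between IMDP and IMSP cells. The libraries held Rpa3 at 14.8, 12.3 and 11.9 RPKM (DP), 17.5, 22.5 and 15.5 RPKM (SP), 12.5, 5.48 and 7.68 RPKM (IMDP) and 21.1, 19.0 and 12.2 RPKM (IMSP). For Rpa2, the DP libraries gave 18.3, 12.8 and 15.2 RPKM, the SP libraries 15.0, 13.9 and 13.7 RPKM, the IMDP libraries 16.1, 8.11 and 10.5 RPKM and the IMSP libraries 20.2, 15.8 and 16.6 RPKM. Rpa3 and Rpa2 are subunits of the single-strand binding protein RPA. Rpa3 lay lower in every DP than in every SP library (-0.49, adjusted p = 0.486), whereas Rpa2 overlapped (0.10, 95% interval -0.38 to 0.59), and between IMDP and IMSP cells they fell by 1.06 and 0.65, Rpa2 at an adjusted p of 0.0499. Lig1, the ligase, was not called there (-0.58, adjusted p = 0.0597).

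The histone chaperone CAF-1 places new nucleosomes behind the fork, and is represented here by Chaf1a and Chaf1b. Chaf1a stood at 13.3, 13.5 and 12.4 RPKM in DP, at 12.7, 12.4 and 12.4 RPKM in SP, at 11.6, 7.19 and 9.46 RPKM in IMDP and at 16.8, 15.6 and 13.3 RPKM in IMSP cells. For Chaf1b, the DP libraries gave 12.1, 13.8 and 13.0 RPKM, the SP libraries 11.1, 8.28 and 8.83 RPKM, the IMDP libraries 16.2, 9.11 and 11.9 RPKM and the IMSP libraries 14.9, 11.9 and 11.3 RPKM. Chaf1b (chr16:93883901-93906115) was higher in every DP than in every SP library by 0.47 (95% interval 0.03 to 0.91, adjusted p = 0.346) and differed by -0.06 between IMDP and IMSP cells (-0.50 to 0.38). Its average over treatments was 0.20 (SE 0.14, adjusted p = 0.297), the highest of the 52, and it was called higher when libraries were scaled to the same median (0.36, adjusted p = 0.0483). Chaf1a fell by 0.71 between IMDP and IMSP cells (adjusted p = 0.0115) and overlapped between DP and SP cells.

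Of the 4 genes that protect forks or signal their arrest, only Clspn was called with all libraries and no block or other scaling. Between IMDP and IMSP cells, Tipin and Wdhd1 were also called lower with the replicate number as a block (27.6% of all genes called). They were so too with the library number as a block (44.1%), and Tipin by limma-voom on the recovered reads (25.5%). The libraries held Clspn at 2.91, 1.34 and 3.16 RPKM (DP), 4.09, 3.03 and 2.91 RPKM (SP), 2.47, 1.24 and 1.69 RPKM (IMDP) and 4.94, 5.07 and 4.58 RPKM (IMSP). Clspn, claspin, links stalled forks to the Chk1 kinase, and fell by 1.44 between IMDP and IMSP cells (SE 0.31, adjusted p = 0.0083), with overlap between DP and SP cells. Tipin stood at 10.1, 7.06 and 5.9 RPKM in DP, at 8.46, 10.1 and 6.14 RPKM in SP, at 8.62, 4.65 and 6.74 RPKM in IMDP and at 12.4, 9.56 and 11.1 RPKM in IMSP cells. For Timeless, the DP libraries gave 5.13, 4.12 and 5.16 RPKM, the SP libraries 4.31, 4.42 and 3.8 RPKM, the IMDP libraries 4.38, 2.79 and 4.41 RPKM and the IMSP libraries 5.59, 3.25 and 5.22 RPKM. Timeless and Tipin bind each other at the fork. Tipin lay lower in every IMDP than in every IMSP library (-0.75) at an adjusted p of 0.053, and Timeless had overlapping libraries in both comparisons, with an average over treatments of -0.04 (95% interval -0.39 to 0.32).

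Among the 27 genes with an E2F motif in a promoter, 9 were called in the average over treatments (median log2 difference -0.30), and among the 16 without one, 11 were (median -0.56). Between IMDP and IMSP cells the counts were 16 of 27 and 14 of 16. Among all genes, the shares called were 26.3% in the average and 25.6% between IMDP and IMSP cells. Motifs stood in 4 of 5 MCM2-7 genes with a promoter in the table and in 2 of 5 deoxynucleotide genes, Rrm1 and Rrm2, while none of the 3 motifs was found for Tk1, Tyms or Dut. The difference between these classes was not tested.

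Imatinib was compared with vehicle within each population. In G0M+ cells the members were lower with imatinib and in G0M- cells slightly higher, but almost no difference passed the test. Between IMDP and DP cells 51 of 52 estimates were below 0, as were 69.3% of all genes, with a median of -0.44 for the members and -0.17 for all genes. The median of the members was -0.29 after scaling to the same median of all genes and -0.24 with listed reads as denominator. Besides Orc6 none was called, although 22 reached an unadjusted p of 0.05, as did 20.5% of all genes, Dbf4 (-1.04 (SE 0.23, adjusted p = 0.0695)), Tk1 (-0.66 (SE 0.15, adjusted p = 0.0732)) and Rrm1 (-0.78 (SE 0.19, adjusted p = 0.0793)) coming closest. All IMDP libraries lay below all DP libraries in 10 of 52 members, and in 19.0% of all genes. Without IMDP1, 13 members were called lower, namely Dbf4, Gins2, Lig1, Mcm2, Mcm3, Mcm4, Mcm5, Orc6, Pcna, Pola1, Pold1, Rfc4 and Rrm1, where 2.18% of all genes were called.

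Between IMSP and SP cells 50 of 52 estimates were above 0, as were 64.5% of all genes, with a median of 0.26 against 0.08 over all genes. The median of the members was 0.18 after scaling and 0.19 with listed reads as denominator. None was called by limma or by limma-voom on the recovered reads, 2 members (and 8.39% of all genes) reached an unadjusted p of 0.05, Tk1 (0.45) and Pole (0.49), and no gene of the 10072 was called. All IMSP libraries lay above all SP libraries in 20 of 52 members and in 11.1% of all genes. In Orc6, Mcm4, Pola1, Prim2, Tk1 and Chaf1a both held, every IMDP library below every DP library and every IMSP library above every SP library, a pattern found in 0.715% of all genes.

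The difference between the population contrasts of imatinib-treated and vehicle-treated mice was tested directly. All 52 estimates were below 0, as were 77.7% of all genes, with a median of -0.68 for the members and -0.25 for all genes. No gene was called by limma or limma-voom, and the smallest adjusted p of a member was 0.534, while 27 of 52 members and 937 of 10072 genes (9.3%) reached an unadjusted p of 0.05. The log2 differences farthest from 0 were those of Tk1 (-1.11, 95% interval -1.58 to -0.63), Orc6 (-1.07, -1.53 to -0.61) and Dbf4 (-1.04, -1.76 to -0.32). That 36 members were called with imatinib and 2 with vehicle is thus not a tested difference between treatments for any single gene.

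**Figure D5:**
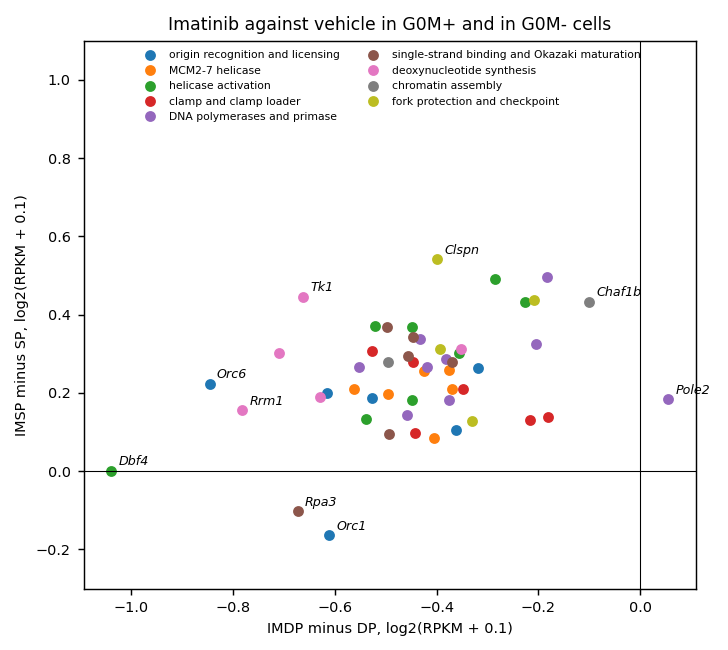
Difference of log2(RPKM + 0.1) between imatinib and vehicle for each of the 52 genes, in G0M+ cells (IMDP minus DP, horizontal) and in G0M- cells (IMSP minus SP, vertical), coloured by role. Nearly all genes lie left of 0 and above 0; Pole2 lies right of 0, and Orc1 and Rpa3 below 0.

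Genes outside the set that belong to the same pathways were counted in 2 lists. Of all genes tested, 25.6% were called between IMDP and IMSP cells, 2.26% between DP and SP cells and 26.3% in the average over treatments. Of 31 other replication factors, 17 were called lower and none higher between IMDP and IMSP cells, 2 lower between DP and SP cells, and 14 lower in the average over treatments. The largest of these falls were those of Asf1b, a histone chaperone that works with CAF-1 (-1.85 (SE 0.24, adjusted p = 0.00031)), Ticrr, treslin, which helps Cdc45 join origins (-1.50 (SE 0.16, adjusted p = 7.06e-05)), and Chtf18, part of an alternative clamp loader (-1.42 (SE 0.17, adjusted p = 0.000199)). Ticrr and Chtf18 were also called between DP and SP cells (-1.24 and -1.23), and the libraries of all 3 genes did not overlap between populations. Of 31 tested genes of other nucleotide synthesis, 17 were called lower and 1 higher between IMDP and IMSP cells, none between DP and SP cells, and 14 lower and 1 higher in the average. The one higher in both was Samhd1, the enzyme that breaks down deoxynucleotides. Samhd1 stood at 7.29, 7.53 and 10.3 RPKM in DP, at 6.47, 5.7 and 4.55 RPKM in SP, at 8.98, 8.22 and 8.25 RPKM in IMDP and at 4.42, 6.9 and 5.71 RPKM in IMSP cells. Every G0M+ library lay above every G0M- library, with 0.59 (SE 0.20, adjusted p = 0.0444) between IMDP and IMSP cells, 0.58 (SE 0.20, adjusted p = 0.214) between DP and SP cells and 0.58 (SE 0.14, adjusted p = 0.0113) in the average. Rrm2b, the reductase subunit used outside S phase, was looked up after these results were seen. Its average difference was 0.30 (SE 0.23, adjusted p = 0.334).

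Mitotic genes and growth genes were counted for comparison. Of 30 mitotic genes, 28 were called lower in DP than in SP cells and all 30 in IMDP than in IMSP cells, with median log2 differences of -2.70 and -3.68, beside -0.10 and -0.76 for the 52 members. In the 20 growth genes (nucleolar, translation, chaperonin and glycolysis genes) none was called between DP and SP cells, 14 were called lower between IMDP and IMSP cells and 13 in the average, with medians of -0.21, -0.73 and -0.47, close to the medians of the members in the last 2 comparisons. The shares of all genes called in these comparisons were 2.26%, 25.6% and 26.3%. The median level of the mitotic genes was 5.82 RPKM in DP1 and 1.36 and 1.7 RPKM in DP2 and DP3, against 15.5 to 17.4 RPKM in SP, 0.85 to 1.66 RPKM in IMDP and 12.5 to 18.3 RPKM in IMSP cells.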

How the data were processed

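RNA of 100 sorted cells per library was sequenced by the authors in 12 libraries, and the deposited values are RPKM, 1 file per library. The methods name CLC Genomics Workbench, the reporting summary HISAT2 and featureCounts, and the submitters' processing notes edgeR and the GRCm38 and mm10 builds. Library preparation with random-type primers from 100 cells and PCR can raise the noise of low genes, and PCR copies cannot be told apart, so read counts bear counting error only.

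Numbered copies of a gene were summed (Cdc45 is the only member with copies). Whole reads and library totals were recovered from the steps between RPKM values. Genes past 1 RPKM in 3 or more libraries entered a fit with limma 3.58.1 (R 4.3.3) on log2(RPKM + 0.1), which had 4 group means, a variance trend and Benjamini-Hochberg adjustment over all genes. Fold changes on this scale understate those of low genes. The procedure was tested on simulated data in which libraries varied independently. That test does not cover neighbouring libraries that deviate together. Gene positions are from GENCODE M21 (GRCm38).

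The members, role groups, gene lists and tests were chosen with earlier results of these data known. Values in every library are given for the 2 members with the smallest and the 1 with the largest adjusted p of each role group in the average over treatments, for members called between treatments or in the interaction, and for members with an average difference above 0. Of the other pathway lists, the 3 largest called rises and falls of that average are named; Rrm2b and further members named in passing were chosen after their values were seen, and a gene looked up with Rrm2b is not reported here. Same-numbered IMDP and IMSP libraries deviated together (r = 0.43, 0.65 and 0.46), same-numbered DP and SP libraries did not (r = -0.19, -0.30 and -0.10), and libraries with neighbouring numbers did in all 6 pairs (0.43 to 0.65). Alternatives changed the pseudocount, filter, groups fitted, variance trend, scaling, denominator, block and libraries, used limma-voom on the recovered reads, or kept copies apart.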

Additional observations from a re-analysis of the deposited data

How the results depend on the processing

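Depth limits the low genes, of which Gins3 had 27 reads in its lowest library, and 3 libraries a group leave intervals of about 0.3 to 0.8 on the log2 scale to each side. Between DP and SP cells, where 2 members were called, with 2.26% of all genes, the count was 5 (9.73%) with the library number as block, and 12 (5 higher, 14.7%) with that block and scaling to the same median of all genes. Between IMDP and IMSP cells, where 36 were called (25.6%), it was 23 when only these 2 groups were fitted (15.4%), 22 with listed reads as denominator (15.5%) and 23 with a replicate block and scaling (13.9%), and 38 with the replicate block alone (27.6%), which lost Orc2 and gained Lig1, Tipin and Wdhd1. With the library number as block it was 41 (44.1%), which kept all 36 and gained Cdt1, Lig1, Rfc1, Tipin and Wdhd1. With that block and scaling it was 33 (39.2%). The median there, -0.76, was -0.49 after scaling to the same median, alone or with either block, and -0.44 with listed reads as denominator, and the interaction median, -0.68, was -0.44 and -0.41. Between IMDP and DP cells the 1 call (0.367%) became 3 when 5 RPKM was required in at least 3 libraries (2.95%), and 0 with only these groups, the replicate block, scaling, both together, listed reads, no variance trend or limma-voom (0% to 0.377%). In the average over treatments the replicate block gave 26 calls (27.9%) against 25 (26.3%) and the library-number block 34 (46.9%). Same-numbered vehicle libraries did not pair, so the replicate block is given for those groups as an alternative only. Without 1 library each, calls ranged from 0 to 3 between DP and SP cells (0 without DP2, DP3 or SP1, 1 without DP1, SP2 or SP3; 1.25% to 2.63% of all genes), 18 to 46 between IMDP and IMSP cells (8.98% to 29.7%), 0 to 13 between IMDP and DP cells (0% to 2.18%) and 19 to 37 in the average (15.9% to 30.5%), and stayed 0 between IMSP and SP cells and in the interaction. The medians ranged from -0.19 to -0.04, -1.0 to -0.62, -0.64 to -0.27, -0.53 to -0.34, 0.19 to 0.31 and -0.93 to -0.52 in the same order. Of 7758 single-gene values under the alternatives, none changed direction past the threshold, 223 lost a call and 96 gained one. The denominator of listed reads and the combinations of a block with scaling were chosen after seeing the data.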
